A study of Mus musculus with 6 samples.

Results

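Bone morphogenetic protein (BMP) genes and their Id target genes were examined in mouse embryo hearts collected at E10.5. The set holds 10 genes, the ligands Bmp2, Bmp4, Bmp5 and Bmp7, the receptors Bmpr1a and Bmpr2, and Id1, Id2, Id3 and Id4. It was taken as every probe set annotated to exactly 1 gene symbol where that symbol is one of these genes, which gave 25 of the 45037 probe sets that are not controls. Of these, 24 were bright enough to be tested, and all 10 genes were among the 12712 genes tested. Heart RNA of Rnd3 knockout (KO) embryos was on 3 arrays and that of wild-type (WT) embryos on 3 arrays, all of the C57BL/6N background. The knockout is global and was made by a gene trap in Rnd3, also called RhoE, whose product inhibits the kinase ROCK1. The submitters' design text states that global KO embryos were lost soon after this stage and that littermates were compared. Whether an array holds 1 heart or several is not stated, so p-values measure only the spread between arrays.

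BMP ligands are secreted dimers of the TGF-beta superfamily. They bind type I receptors such as Bmpr1a together with type II receptors such as Bmpr2, and the type I receptor then phosphorylates Smad1, Smad5 and Smad9, which enter the nucleus with Smad4. The Id genes are among the direct targets of these Smads. Their products are helix-loop-helix proteins without a DNA-binding region that hold bHLH transcription factors off DNA. In the embryonic heart, Bmp2 of the atrioventricular canal drives cushion formation, Bmp4 acts in the outflow tract and the second heart field, the progenitor pool that adds to the arterial pole, and Bmp5 and Bmp7 are made in the myocardium.

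Values are MAS5 signals on a linear scale, and a fold change is the KO minus WT difference of log2 signal. A probe set was tested if it lay above a low-signal limit, each array's 40th percentile (44.5 to 52.8), on at least 3 of the 6 arrays. Each gene is represented by its brightest probe set unless another is named. The trapped gene was low on the KO arrays, where Rnd3 read 5.89, 12.3 and 121, against 909, 954 and 862 on the WT arrays. The female marker Xist read 539, 8884 and 28.4 on KO arrays 1, 2 and 3, against 10251, 12474 and 11878 on the WT arrays. Kdm5d, Uty and Eif2s3y, which lie on the Y chromosome, passed the test, and each was higher on every KO array than on every WT array. Eif2s3y read 2214, 793 and 2339 in KO and 551, 312 and 385 in WT, with a log2 fold change of 1.99, and Uty and Kdm5d had 1.75 and 1.73. Sex-linked signals thus differed between the groups on all 3 KO arrays, KO array 2 being the nearest to WT. The ratio of 3' to 5' Gapdh signal, a sign of RNA integrity, was 0.975, 0.993 and 0.939 on the KO arrays and 1.11, 1.09 and 1.13 on the WT arrays. The same ratio for Actb was 2.45, 2.54 and 2.22 on the KO arrays and 2.59, 2.35 and 2.62 on the WT arrays, which overlap. The part of the Gapdh ratio in the results below was not tested, and values from a fit with the log2 Xist signal as a covariate stand beside several of the genes. With limma and Benjamini-Hochberg adjustment over all genes, 162 genes (1.27%) passed an adjusted p of 0.05, 100 of them higher and 62 lower in KO.

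Among the 10 genes, Bmp4 alone passed the test, with a signal in KO hearts at 0.708 of that in WT hearts. Bmp2 and Id4 had log2 fold changes of similar size to Bmp4 but did not pass, and Id1, Id2 and Id3 had log2 fold changes within 0.05 of 0. The call for Bmp4 makes 1 of 10 genes lower in KO and 0 higher, where 0.488% of all genes tested were called lower and 0.787% higher. At an unadjusted p below 0.05 there were 5 of the 10, namely Bmp2, Bmp4, Bmp5, Bmpr1a and Id4, all lower in KO, beside 20.3% of all genes in either direction. The KO and WT signals did not overlap for 3 of the 10, Bmp2, Bmp4 and Bmpr1a, each lower in KO, beside 26.3% of all genes without overlap and 15.5% lower without overlap. The median log2 fold change of the 10 was -0.15, beside -0.04 over all genes tested. The 10 genes were chosen with earlier results of these data known, so these shares describe the set and carry no test.

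**Figure D1:**
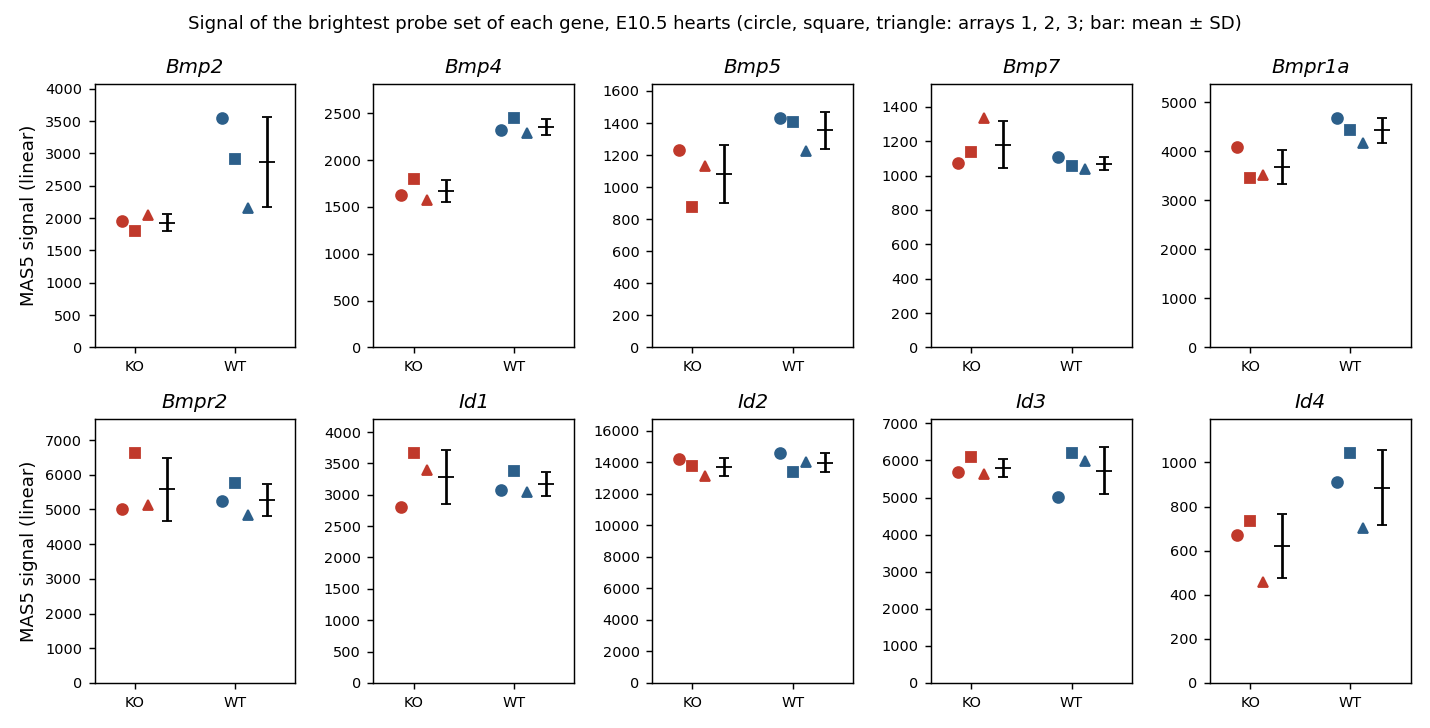
MAS5 signal (linear axis from 0) of the brightest probe set of each gene on the 3 KO and 3 WT arrays; points are arrays and the bar beside them is the mean ± SD. Bmp4 lies between 1576 and 1803 on the KO arrays and between 2293 and 2449 on the WT arrays, while the groups interleave for Id1, Id2 and Id3.

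The stretch just before the transcription start is given for the gene that passed and for the Id genes with an entry in RefSeq's promoter table (GRCm38.p6), to show where the Id genes differ. Of the 10 genes, 7 had an entry. Capitals mark GGCGCC, a GC-rich site bound by Smad1 and Smad5, and the other motif searched was CAGACA, which overlaps no GGCGCC; both strands were read. The windows are the 250 bases before the start, on the gene's strand, at chr14:46390670-46390919 (minus) for Bmp4, chr12:25096093-25096342 (minus) for Id2, chr4:136143572-136143821 (plus) for Id3 and chr13:48260866-48261115 (plus) for Id4.
Bmp4: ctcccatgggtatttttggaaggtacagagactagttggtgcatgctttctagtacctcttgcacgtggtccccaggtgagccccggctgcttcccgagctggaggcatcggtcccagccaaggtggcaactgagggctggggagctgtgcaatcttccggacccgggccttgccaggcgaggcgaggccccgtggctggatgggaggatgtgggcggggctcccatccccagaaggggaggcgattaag
Id2: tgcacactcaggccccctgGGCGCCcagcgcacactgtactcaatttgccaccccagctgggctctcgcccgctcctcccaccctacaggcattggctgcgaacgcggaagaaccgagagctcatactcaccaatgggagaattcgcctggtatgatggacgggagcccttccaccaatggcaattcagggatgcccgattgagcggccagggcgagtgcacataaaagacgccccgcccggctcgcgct
Id3: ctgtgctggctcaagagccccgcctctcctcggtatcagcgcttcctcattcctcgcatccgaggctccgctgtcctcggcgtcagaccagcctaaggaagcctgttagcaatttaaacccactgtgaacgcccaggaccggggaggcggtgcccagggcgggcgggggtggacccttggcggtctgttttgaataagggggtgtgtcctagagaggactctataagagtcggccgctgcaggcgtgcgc
Id4: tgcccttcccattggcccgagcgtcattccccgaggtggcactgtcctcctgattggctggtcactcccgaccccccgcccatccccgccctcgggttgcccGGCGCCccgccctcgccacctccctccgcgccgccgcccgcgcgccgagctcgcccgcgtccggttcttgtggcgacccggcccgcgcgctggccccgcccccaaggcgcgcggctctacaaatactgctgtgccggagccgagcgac
GGCGCC occurred once each in the windows of Id2, Id4, Bmpr1a and Bmpr2, 4 of 7, starting 231, 148, 198 and 105 bases before the start, and in 9.59% of the 32851 windows in the table. Those of Bmp4, Bmp5 and Id3 did not hold it. CAGACA occurred in the window of Bmp5, on the opposite strand, and in 17.1% of all windows. Both Id4, with a log2 fold change of -0.52, and Id2, with -0.03, held GGCGCC. The G and C content of these windows was 63.2% for Bmp4, 62.8% for Id2, 62.8% for Id3 and 75.6% for Id4, beside a median of 52.4% over the table.

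Of the ligands, Bmp4 read 1627, 1803 and 1576 on KO arrays 1 to 3, against 2323, 2449 and 2293 on the WT arrays. Every KO array lay below every WT array, and the spread within each group was small beside the gap between them. Bmp4 averaged 1669 ± 119 in KO and 2355 ± 82.7 in WT (SD, n = 3 arrays each). It fell by 0.50 on the log2 scale (SE 0.09, 95% interval -0.70 to -0.30, limma adjusted p = 0.0374), and 0.503% of the genes tested had a smaller p. With the log2 Xist signal as a covariate the log2 fold change was -0.39 and did not pass (limma adjusted p = 0.103). The call held without KO array 1 or 2 (limma adjusted p = 0.0269 and 0.0449) and was lost without KO array 3 (0.135) or WT array 1, 2 or 3 (0.156, 0.192 and 0.120). Over those 6 settings the log2 fold change stayed between -0.56 and -0.46. In RNA of whole hearts, fewer cells that make a transcript and less of it per cell cannot be told apart.

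Bmp4 is a known product of the outflow tract and second heart field. The summed signal of 6 such markers was 2586 to 3554 on the KO arrays and 3604 to 3763 on the WT arrays, without overlap. Most of that sum came from Isl1 and Sema3c, so it says little of the dimmer markers. Sema3c averaged 1898 in KO and 2254 in WT. Of these 6, 5 had a negative log2 fold change and Tbx1 had 0.28, with a mean of 107 in KO and 89.3 in WT. None of the 6 passed, and 1 had an unadjusted p below 0.05, beside 20.3% of all genes. None was at 0, though Fgf8, Fgf10 and Tlx1 were below the low-signal limit on 2 of the 3 KO arrays. Isl1, the defining transcription factor of the second heart field, read 598, 800 and 1000 in KO and 1121, 1169 and 1082 in WT. Fgf8, another of its markers, was dim, at 82.7, 8.93 and 35.8 in KO and 62.6, 91.3 and 91.2 in WT. Markers of foregut epithelium, which borders the heart, summed to 2644 to 4888 on the KO arrays and 5202 to 5783 on the WT arrays. Of the 5 tested genes, 4 were negative and none passed. Most of this sum was the signal of the keratin genes Krt8 and Krt18. Krt8 averaged 2264 in KO and 3270 in WT, and Krt18 averaged 1354 and 1812. Epcam and Cdh1 were dimmer, with log2 fold changes of -0.37 and -1.02, and Foxa1 had 0.65. Foxa2, Nkx2-1 and Cldn6 were too dim to be tested. Cardiomyocyte markers summed to 211061 to 233105 in KO and 225410 to 241158 in WT, which overlap. Markers of liver and yolk sac endoderm summed to 490 to 2226 in KO and 1663 to 7712 in WT, which overlap. All 7 tested were negative, with a median log2 fold change of -0.74. Of these, Alb, the albumin gene, fell by 1.97 on the log2 scale (limma adjusted p = 0.0499968), at 51.9, 36.8 and 20.7 in KO and 87.8, 148 and 183 in WT. Afp, the alpha-fetoprotein gene, read 216, 1074 and 2.78 in KO, against 1116, 2496 and 6054 in WT, without overlap, and did not pass (limma adjusted p = 0.125). Macrophage markers summed to 932 to 2226 in KO and 924 to 1016 in WT, which overlap, and 1 of the 7 tested passed. It was Lyz2, the lysozyme gene, which rose by 1.38 on the log2 scale, with 368, 828 and 707 in KO and 261, 203 and 232 in WT (limma adjusted p = 0.0374). Csf1r had -0.02, Cx3cr1 -0.17, Adgre1 0.02, Cd68 0.09, Mrc1 0.12 and C1qb 0.13. The highest macrophage sum was that of KO array 2, and KO arrays 1 and 3 had 932 and 1218. The sums of the remaining tissue lists overlapped between the groups. Endocardium and endothelium had 9454 to 10868 in KO and 9021 to 9998 in WT. Cushion mesenchyme had 35351 to 36261 in KO and 32862 to 38313 in WT. For epicardium the ranges were 6436 to 10518 and 9177 to 9527, and for neural crest 3694 to 4859 and 3602 to 3913. Erythroid cells had 93281.5 to 105857 and 89972 to 106486. The part of these tissue shares in the Bmp4 result was not tested.

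Bmp2 read 1950, 1797 and 2046 on the KO arrays, against 3547, 2916 and 2156 on the WT arrays. The groups did not overlap, but the WT arrays spread widely, and WT array 3 lay close to the highest KO array. The log2 fold change was -0.55 (SE 0.15, 95% interval -0.88 to -0.21, limma adjusted p = 0.0895). Its size rested on WT array 1 in part, being -0.38 without that array and -0.74 without WT array 3. Bmp2 and Bmp4 each have 1 probe set on the array, so neither has a further probe set to compare with.

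Bmp5 has 3 probe sets, and they did not move together. The brightest read 1230, 878 and 1131 in KO and 1431, 1408 and 1223 in WT, overlapping by KO array 1 and WT array 3. Its change was -0.34 on the log2 scale (SE 0.13, limma adjusted p = 0.185). A dimmer one, with signals from 132 to 214 in KO and 199 to 255 in WT, had -0.41. The dimmest went the other way, with 146, 148 and 164 in KO, against 112, 132 and 115 in WT, a log2 fold change of 0.35 with no overlap between the groups. The value for the brightest was -0.20 without KO array 2, -0.53 with the Xist covariate and -0.13 with the probe sets averaged. None of the 3 passed when each probe set was tested on its own.

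The Bmp7 probe sets disagreed in the same way. Its brightest read 1073, 1134 and 1335 in KO and 1111, 1053 and 1041 in WT, a log2 fold change of 0.14 (SE 0.11, 95% interval -0.10 to 0.38, limma adjusted p = 0.506). The next brightest was lower on every KO array, with 1058, 994 and 1094 in KO and 1225, 1152 and 1168 in WT, a log2 fold change of -0.17. The third, with signals from 253 to 387 in KO and 262 to 276 in WT, had 0.29. Neither direction passed the test, and the sign for Bmp7 depends on which probe set is read.

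**Figure D2:**
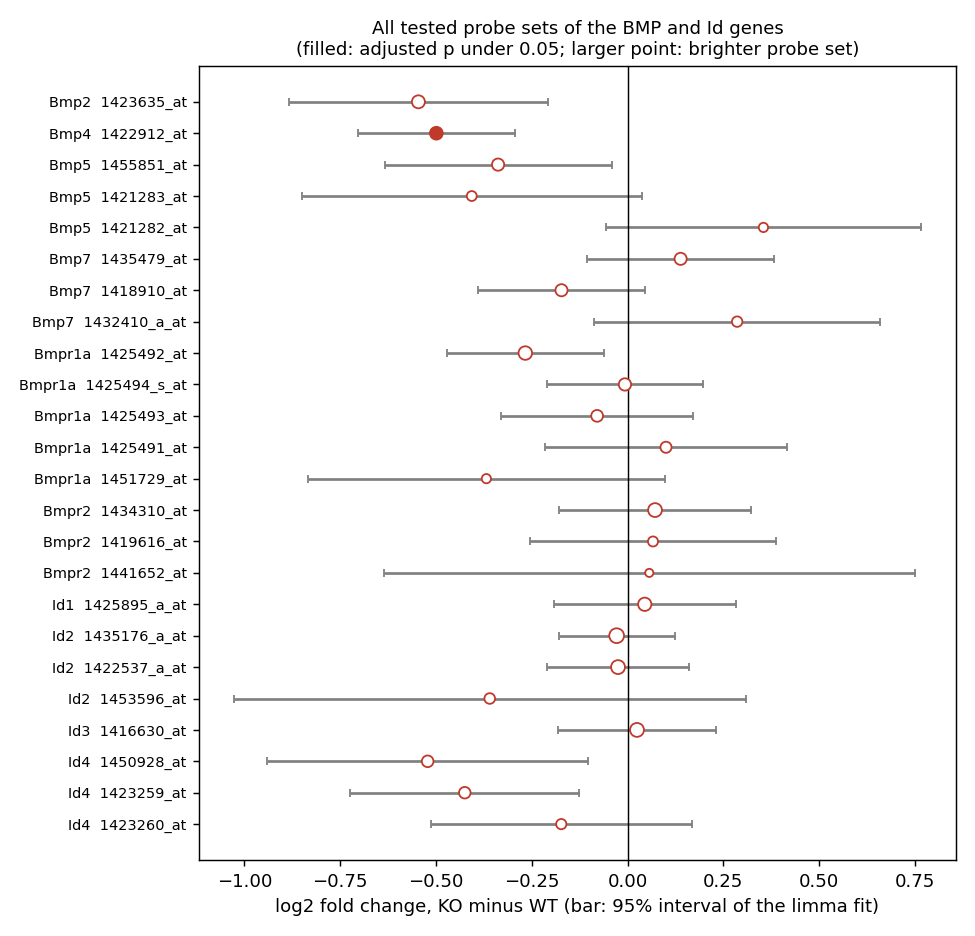
Log2 fold change, KO minus WT, of the 24 tested probe sets of the 10 genes, with the 95% interval of the limma fit over all probe sets. The Bmp4 probe set is the filled one past the threshold, the 3 Id4 probe sets lie left of 0, and the probe sets of Bmp5, Bmp7 and Bmpr1a lie on both sides.

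Of the receptors, Bmpr1a, the type I receptor needed in heart muscle and cushions, read 4086, 3457 and 3520 in KO, against 4681, 4442 and 4164 in WT. The groups did not overlap, KO array 1 and WT array 3 being close neighbours. The log2 fold change was -0.27 (SE 0.09, 95% interval -0.47 to -0.06, limma adjusted p = 0.143). It passed in 1 of 17 alternative settings, when KO array 1 was left out (-0.34, limma adjusted p = 0.0496). That setting let 916 of the 12712 genes tested pass. The 4 other tested Bmpr1a probe sets had -0.0067, -0.08, 0.10 and -0.37, and their groups overlapped. A sixth did not reach the low-signal limit on any of the 6 arrays and was not tested.

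Bmpr2, the type II receptor for BMPs, read 5002, 6615 and 5120 in KO and 5245, 5749 and 4840 in WT. KO array 2 was the highest of the 6 arrays and the other KO arrays lay within the WT range. The log2 fold change was 0.07 (SE 0.11, 95% interval -0.18 to 0.32, limma adjusted p = 0.761), and its dimmer probe sets had 0.07 and 0.06.

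Of the Id genes, Id1 read 2806, 3658 and 3390 on the KO arrays and 3077, 3383 and 3044 on the WT arrays. KO array 1 was the lowest and KO array 2 the highest of all 6. The log2 fold change was 0.04 (SE 0.11, 95% interval -0.19 to 0.28, limma adjusted p = 0.846).

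The 2 brighter probe sets of Id2 gave nearly the same value. The brightest read 14224, 13775 and 13128 in KO and 14572, 13369 and 14005 in WT, a log2 fold change of -0.03 (SE 0.07, 95% interval -0.18 to 0.12, limma adjusted p = 0.850). The next brightest had -0.02, while a dim one, from 171 to 402 in KO and 260 to 469 in WT, had -0.36 with overlapping groups.

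Id3 read 5694, 6083 and 5627 in KO and 5005, 6188 and 5977 in WT. The KO arrays lay inside the WT range. The log2 fold change was 0.02 (SE 0.09, 95% interval -0.18 to 0.23, limma adjusted p = 0.907). The 95% intervals of Id1, Id3 and the brightest Id2 probe set each leave out a fall of 0.50 on the log2 scale, the size measured for Bmp4. That of the dim Id2 probe set, -1.03 to 0.31, takes it in.

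Id4 was lower on the KO arrays by the mean of each of its 3 probe sets. Its brightest probe set read 670, 736 and 457 in KO, against 910, 1041 and 703 in WT, the groups overlapping by KO array 2 and WT array 3. The log2 fold change was -0.52 (SE 0.19, 95% interval -0.93 to -0.11, limma adjusted p = 0.158). A second probe set, nearly as bright, did not overlap, with 643, 656 and 492 in KO and 853, 799 and 736 in WT, a log2 fold change of -0.42. The third had -0.17, with 283, 243 and 208 in KO and 282, 277 and 262 in WT. All 3 had a negative log2 fold change and none passed. The value for the brightest was -0.15 with the Xist covariate and -0.31 without KO array 3, which had the lowest Id4 signal on each of the 3 probe sets.

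Of the 24 tested probe sets of the 10 genes, 15 had a negative and 9 a positive log2 fold change. When every probe set of the table was tested on its own, the Bmp4 probe set was the 1 that passed (limma adjusted p = 0.0448), where 0.63% of all probe sets passed and 0.214% passed as lower. The groups did not overlap for 5 probe sets lower in KO, of Bmp2, Bmp4, Bmp7, Bmpr1a and Id4, and for 1 higher in KO, of Bmp5. The same held for 13.5% and 10.4% of all probe sets tested.

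Because the ligand fell and most Id genes had values near 0, the difference between them was taken within each array, where the scaling of the array cancels. These pairs were chosen after the values were seen, so they are a description and no p-value is read from them. Bmp4 by itself already separated the groups, so separation of its difference from a gene near 0 adds little. Log2 Bmp4 minus log2 Id1 was -0.79, -1.02 and -1.11 on the KO arrays, against -0.41, -0.47 and -0.41 on the WT arrays. The groups did not overlap, and the difference of the means was -0.54. Bmp4 minus Id2 and Bmp4 minus Id3 also did not overlap, with differences of -0.47 and -0.52. Bmp4 minus Bmp7 had -0.64, again without overlap. Against Id4 and Bmp2 the groups overlapped, with differences of 0.02 and 0.05.

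**Figure D3:**
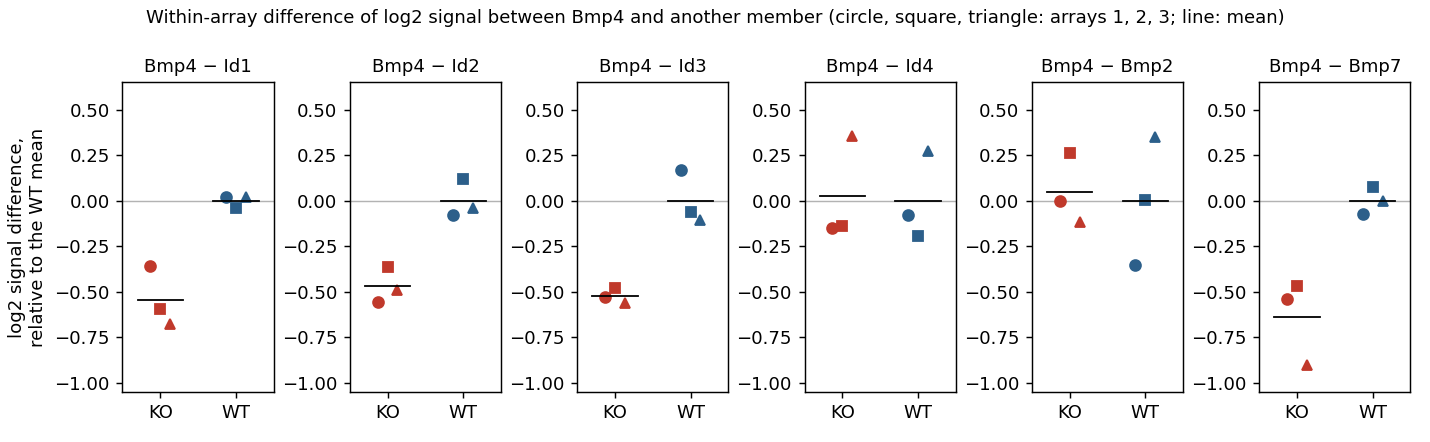
Difference of log2 signal between Bmp4 and 6 other genes of the set on each array, set to 0 at the WT mean, with the 3 KO arrays left of the 3 WT arrays. The KO points lie below all WT points for Id1, Id2, Id3 and Bmp7 and among them for Id4 and Bmp2.

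The rest of the BMP pathway was set out from lists of 77 other genes, of which 72 were on the array and 60 were tested. One of the 60, Tbx3, fell, none rose and 59 did not pass, beside 0.488% of all genes called lower. Of the 60, 42 had a negative log2 fold change, beside 56.2% of all genes, and the median was -0.14, beside -0.04 over all genes. At an unadjusted p below 0.05 there were 14 of the 60, beside 20.3% of all genes. Groups did not overlap for 12 genes lower in KO and 5 higher, beside 15.5% and 10.8% of all genes. These lists too were chosen with earlier results of these data known, so the shares are a description only.

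**Figure D4:**
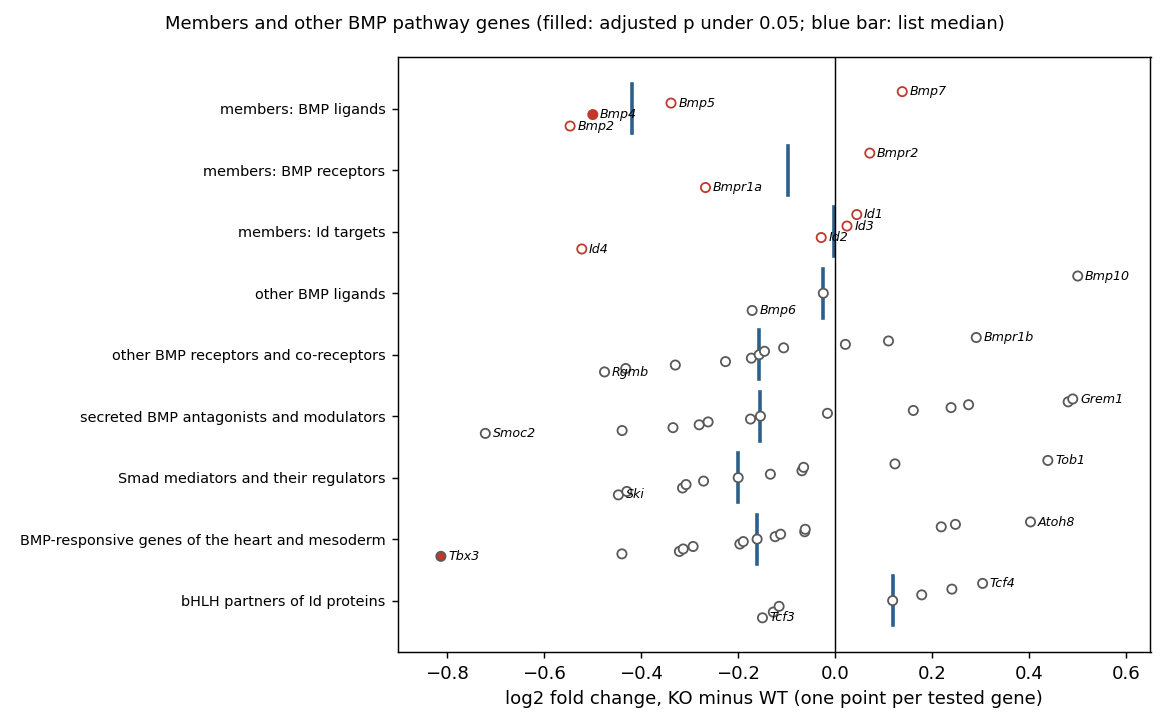
Log2 fold change, KO minus WT, of the 10 genes and of the 60 other tested pathway genes by role, one point per gene, with the median of each list as a bar. Bmp4 and Tbx3 are the filled points past the threshold. The medians of the lists of other receptors, antagonists, Smads and responsive genes lie between -0.20 and -0.15. Those of other ligands and of Id partners are -0.02 and 0.12, and that of Bmpr1a and Bmpr2 is -0.10.

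Among other ligands, 3 of 7 on the array were tested and none passed. Bmp10, a ligand of trabecular and atrial heart muscle, ran opposite to Bmp4, with 214, 304 and 277 in KO and 190, 167 and 200 in WT. Every KO array lay above every WT array, and the log2 fold change was 0.50 (SE 0.17, limma adjusted p = 0.145). It passed in 1 of 17 alternatives, without KO array 1 (0.65, limma adjusted p = 0.0496), where 916 genes passed. Bmp6, the ligand that also regulates hepcidin in the liver, had -0.17, and Gdf2, the circulating ligand BMP9, had -0.02.

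Of 11 other receptors and co-receptors, all tested, 8 had a negative log2 fold change and none passed. Rgmb, a membrane-anchored BMP co-receptor, read 430, 339 and 282 in KO, against 470, 463 and 508 in WT (-0.47, SE 0.16, limma adjusted p = 0.127). Its groups did not overlap, though the value was 0.01 when its probe sets were averaged. It passed in 1 of 17 alternatives, without KO array 1 (-0.63, limma adjusted p = 0.0296), where 916 genes passed. The betaglycan gene Tgfbr3 had -0.23 and the activin and BMP type II receptor genes Acvr2b and Acvr2a had -0.33 and -0.16. Acvr1, another type I receptor for BMPs, had 0.02, and the decoy receptor Bambi, itself BMP-induced, had 0.11.

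Of the secreted antagonists and modulators, 13 of the 19 on the array were tested, and none passed. Nog, the antagonist noggin, did not reach the low-signal limit on any array, and Chrd, chordin, was above it on 1 array of each group. Fstl1, a secreted follistatin-related glycoprotein, had 0.24, with no overlap between 14180 to 16645 in KO and 12144 to 13929 in WT. Sost, the BMP and Wnt antagonist sclerostin, had -0.44, the chordin-cleaving protease gene Bmp1 -0.17 and the extracellular BMP modulator gene Bmper -0.15.

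Among Smads and their regulators, 9 of 11 tested genes had a negative log2 fold change and none passed. Smad1, the BMP signal transducer, read 2177, 2175 and 1932 in KO, against 2459, 2584 and 2767 in WT, without overlap (-0.31, SE 0.09, limma adjusted p = 0.0988). Ski, a corepressor of Smad proteins, read 822, 744 and 901 in KO and 1181, 1125 and 1049 in WT (-0.45, SE 0.11, limma adjusted p = 0.0642). Tob1, an antiproliferative protein that represses BMP Smads in bone cells, went the other way, with 2474, 3087 and 2452 in KO and 1965, 1805 and 2121 in WT (0.44, SE 0.11, limma adjusted p = 0.0701). With array weights, where 542 genes passed, so did both Ski and Tob1 (limma adjusted p = 0.0459 and 0.0421). Tob1 also passed without KO array 1 (0.49, limma adjusted p = 0.0404), where 916 genes passed. Lemd3, an inner nuclear membrane protein that binds Smads, had -0.27. Smad6 and Smad7, inhibitory Smads that BMP signalling induces, had -0.20 and -0.43 with overlapping groups.

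Among 15 tested genes that respond to BMP in heart and mesoderm, Tbx3 fell, none rose and 14 did not pass, with 12 negative. Tbx3, a transcriptional repressor of the conduction system and atrioventricular canal, read 434, 347 and 396 in KO, against 683, 764 and 618 in WT, a fold change of -0.81 on the log2 scale (SE 0.13, limma adjusted p = 0.0344). That value was -0.20 when its probe sets were averaged (limma adjusted p = 0.808), and the call was lost without WT array 1, 2 or 3 or KO array 3 (limma adjusted p = 0.150, 0.185, 0.111 and 0.122). It was lost as well with the Xist covariate (0.0623), without the filter on low signal (0.0518) and without an intensity trend in the variance (0.206), all limma adjusted p. Its relative Tbx2, a target of Bmp2 in the atrioventricular canal, had -0.32, with 401, 331 and 357 in KO and 418, 517 and 427 in WT. Hey1, a transcriptional repressor better known as a Notch target, had -0.44, which was -0.20 without KO array 3 and -0.07 with the Xist covariate. Gata6, a zinc finger factor of heart and gut endoderm, had 0.25, which was 0.16 without KO array 2. The homeobox genes Msx1 and Msx2, commonly read as BMP targets, had -0.19 and -0.16 with overlapping groups.

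Of 7 partners of Id proteins, none passed. Among the E proteins, the bHLH factors that Id proteins bind directly, Tcf3 had -0.15, Tcf4 0.30 and Tcf12 -0.12. The value for Tcf4 passed in 1 of 17 alternatives, without KO array 1 (0.46, limma adjusted p = 0.0466), where 916 genes passed. It was 0.16 without KO array 2. The ETS factor genes Ets2 and Ets1 had 0.24 and 0.18.

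Over the 6 arrays, the genes whose log2 signal ran most like that of Bmp4 were Rbm6 (Pearson r = 0.998), Ovgp1 (0.994) and Adamts4 (0.992), picked from 12712 genes. Their log2 fold changes were -0.39, -0.71 and -0.55, and none passed. For Id1 they were Inka1 (0.984), Prrx1 (0.977) and Mtarc2 (0.975), with log2 fold changes of 0.11, 0.22 and 0.09. These values describe 6 arrays that share a scaling and, for Bmp4, a difference between genotypes, and they carry no test.

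**Figure D5:**
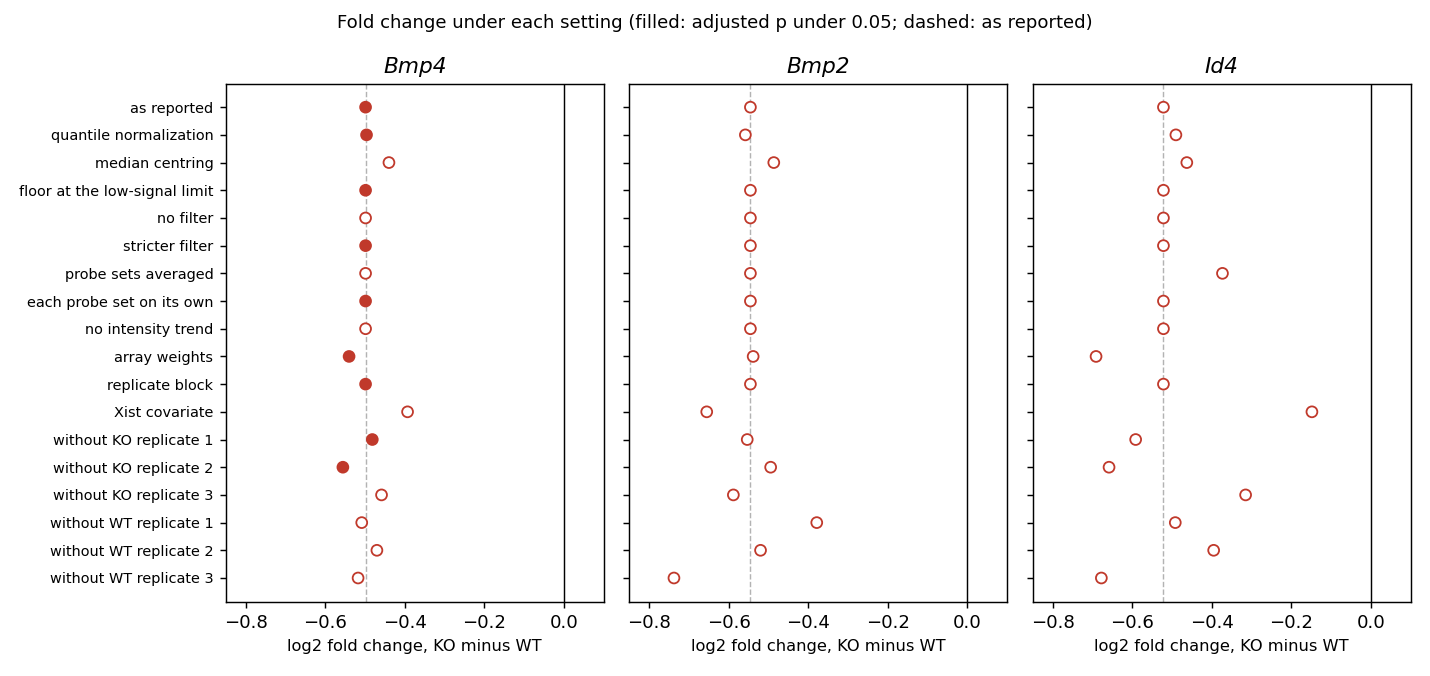
Log2 fold change, KO minus WT, of Bmp4, Bmp2 and Id4 as reported and under 17 alternative settings, with filled points where the adjusted p was under 0.05. All points lie left of 0, between -0.56 and -0.39 for Bmp4, -0.74 and -0.38 for Bmp2 and -0.69 and -0.15 for Id4.

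Across the settings the log2 fold changes of Bmp4, Bmp2 and Id4 were negative in 17 of 17 alternatives each. Bmp4 passed in 8 of the 17, while Bmp2 and Id4 passed in none, with lowest limma adjusted p of 0.0557 and 0.0517.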

How the data were processed

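The authors deposited one signal intensity per probe set and array, linear and not log-transformed, from Affymetrix mouse expression arrays. MAS5 and Affymetrix Expression Console are named in the submitters' processing notes, with no settings. By the values, each array's mean after trimming 2% at each end was 500.0. MAS5 uses mismatch probes as background, which makes dim probe sets noisy. The number of arrays, 3 per group, limits the precision.

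Of 45037 probe sets besides 64 controls, 34945 carried 1 gene symbol in the annotation, 932 several, and 9160 were unnamed here. Signals were taken to log2 without further scaling. Each of 18193 genes was represented by the probe set of highest mean, and 12712 genes (23339 probe sets, fitted separately) passed the filter. Tests used limma 3.58.1 in R 4.3.3 (intensity trend, Benjamini-Hochberg, threshold 0.05). On simulated data they recovered 34.9% of 1.5-fold, 64.25% of 2-fold and 93.5% of 4-fold changes. The largest change among the 10 genes, that of Bmp2, was 1.46-fold, so a gene that did not pass may still differ. "Rose" and "fell" refer to genes that passed. Named are the 10 genes, per pathway list those past the threshold and up to 4 by p, the 3 genes most like Bmp4 and Id1, and Rnd3 and Xist. Named outside this rule, with values seen, are Eif2s3y, Uty, Kdm5d, Alb, Afp, Lyz2, Isl1, Fgf8, Fgf10, Tlx1, Acvr1, Bambi, Nog, Chrd, Smad6, Smad7, Msx1, Msx2 and Tcf12. Marker genes named likewise are Sema3c, Tbx1, Krt8, Krt18, Epcam, Cdh1, Foxa1, Foxa2, Nkx2-1, Cldn6, Csf1r, Cx3cr1, Adgre1, Cd68, Mrc1 and C1qb. The 10 genes and all lists were chosen with earlier results of these data known, and the within-array differences were added after seeing the data. The labels do not tie replicate numbers to litters, so the number served only as an alternative block. Other alternatives concerned scaling, low values, the probe set used, the variance fit, an Xist covariate, the threshold and single arrays left out.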

Additional observations from a re-analysis of the deposited data

How the results depend on the processing

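The number of genes past the threshold, 162 as reported, was 83 with median centring, 1 without the filter, 256 with the stricter filter, 0 with probe sets averaged, 1 without the intensity trend, 542 with array weights, 6 with the Xist covariate and 805 at an adjusted p of 0.10. It ranged from 0 (without WT array 1 or 2) to 916 (without KO array 1) when each array was left out. At an unadjusted p below 0.05, limma gave 2580 as reported. With centring 67 were higher and 16 lower, against 100 and 62 as reported. Probe sets past it, 147 as reported, numbered 14 without the filter, 281 with the stricter one, 1 without the trend, 608 with array weights, 5 with the covariate, 816 at 0.10 and 0 to 959 with each array left out. Of the 10 BMP and Id genes, 0 passed with centring, no filter, averaging, no trend or the covariate, 2 at 0.10 and 0 to 2 with each array left out. Bmp4 missed the threshold with centring (-0.44, limma adjusted p = 0.0888), no filter (-0.50, 0.0518), averaging (-0.50, 0.0859), no trend (-0.50, 0.206) and the covariate (-0.39, 0.103), and ranged from -0.56 to -0.46 with each array left out. More genes are tested without the filter, 18193. The cause of the lost Bmp4 call was not tested for any of these settings. Bmpr1a reversed with averaging (0.25), which takes in a probe set below the limit on all arrays, and ranged from -0.34 to -0.22 with each array left out. Values near 0 changed sign: Id3 with quantile normalization (-0.0062) and array weights (-0.012), Id2 with centring (0.030) and the covariate (0.0076), Bmpr2 with array weights (-0.0099), and Gdf2 with quantile normalization (0.031) and centring (0.035). With each array left out, Id1 ranged from -0.037 to 0.154, Id2 from -0.060 to 0.0025, Id3 from -0.069 to 0.084, Bmpr2 from -0.057 to 0.145 and Gdf2 from -0.184 to 0.076. Averaging also turned Rgmb (0.014), Acvr2b (0.17), Gata6 (-0.11) and Tcf4 (-0.020), and the covariate turned Bmp6 (0.10); the cause was not tested. With the replicate number as a block 189 genes and 178 probe sets passed, and Bmp4 kept -0.50 (limma adjusted p = 0.0380). The block changed no call among the 10 genes and the fitted pathway genes taken by p. Limma adjusted p moved both ways with it, for Id4 from 0.158 to 0.0517 and for Smad1 from 0.0988 to 0.129. Same-numbered arrays correlated at 0.018, 0.057 and 0.015 in their deviations from the group means. The other KO and WT pairs lay between -0.037 and 0.021, the highest being KO array 3 with WT array 1. All Bmp4 signals lay far above the low-signal limit of 44.5 to 52.8; Nog and Chrd lay near or below it.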
